A study of Mus musculus with 36 samples.

Results

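The corticotropin-releasing factor (CRF) system is covered here by 6 genes, taken by symbol from the deposited gene table: the peptide genes Crh, Ucn and Ucn3, the receptor genes Crhr1 and Crhr2, and the binding protein gene Crhbp. They are 6 of the 19025 genes in that table, and each symbol had a single row. The libraries came from brains of C57 mice aged 6 to 7 weeks, either KI mice, which carry a synonymous base change knocked into Maoa, or WT mice. Each genotype was sampled in 6 regions that the labels call HP, PFc, Nac, STR, SN and VTA without spelling them out, with 3 libraries per genotype and region and 36 in all, prepared with a SMARTER mRNA-seq kit. By the title of the series, less Maoa is transcribed and translated with this base change, and the regions are described as related to addiction. The labels do not say whether libraries came from separate animals, so p-values measure only the spread between these libraries.

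CRF, the product of Crh, is the hypothalamic peptide that starts the pituitary and adrenal stress response, and neurons outside the hypothalamus also use it as a transmitter. CRF and urocortin (from Ucn) activate the receptor CRFR1, whereas urocortin and urocortin 3 (from Ucn3) activate CRFR2; both receptors act mainly through the stimulatory G protein and cyclic AMP. CRF-binding protein, from Crhbp, is secreted and holds CRF and urocortin away from the receptors. In rodents Crhr1 is known from cortex and midbrain, Crhr2 from the lateral septum and choroid plexus, Ucn from the Edinger-Westphal nucleus beside the midline of the midbrain, and Ucn3 from the hypothalamus and medial amygdala.

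Each library held between 15145631 and 18863503 estimated counts. In 8 libraries the marker genes of the labelled region were at a low level: KI HP 2, KI Nac 1, KI Nac 2, KI STR 3, KI SN 1, KI SN 2, WT Nac 2 and WT VTA 3, which is 6 of 18 KI and 2 of 18 WT libraries. For Nac, for example, the striatal projection neuron markers had a mean log2(CPM + 1) of 2.47 to 3.63 in those 3 libraries and of 7.68 to 8.42 in the other 3, while dopamine neuron markers reached 7.62 in KI Nac 1 and 6.12 in WT Nac 2. The main results that rest on these libraries are given with and without them. Maoa itself was not lower in KI libraries throughout: it had 37.7, 48.1 and 40.5 CPM (counts per 1000000 of the scaled library size) in KI HP, against 34, 35 and 36.7 CPM in WT HP, and the means of KI exceeded those of WT in every region except SN, where they were 56.7 ± 17.7 CPM in KI and 72.5 ± 7.45 CPM in WT (SD, n = 3 each).

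All 6 genes were low to moderate in abundance. On the authors' TPM scale, which is per transcript length and so allows genes to be set side by side, the median level over 36 libraries was 17.1 TPM for Crhbp, 10.7 for Crhr1, 7.68 for Crh, 1.18 for Crhr2, 0.295 for Ucn and 0.1 for Ucn3. Crhbp had the highest mean TPM of the 6 in HP and PFc of both genotypes (36.9 ± 5.1 TPM in KI PFc and 30.9 ± 1.51 TPM in WT PFc, SD, n = 3 each). Ucn led in VTA, with 45.2 ± 46.4 TPM in KI and 81.3 ± 79.2 TPM in WT, where its SD was about as large as its mean. In SN the leading gene was Crhbp in KI, at 21.8 ± 16.3 TPM, and Crhr1 in WT, at 23.1 ± 3.74 TPM.

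**Figure D1:**
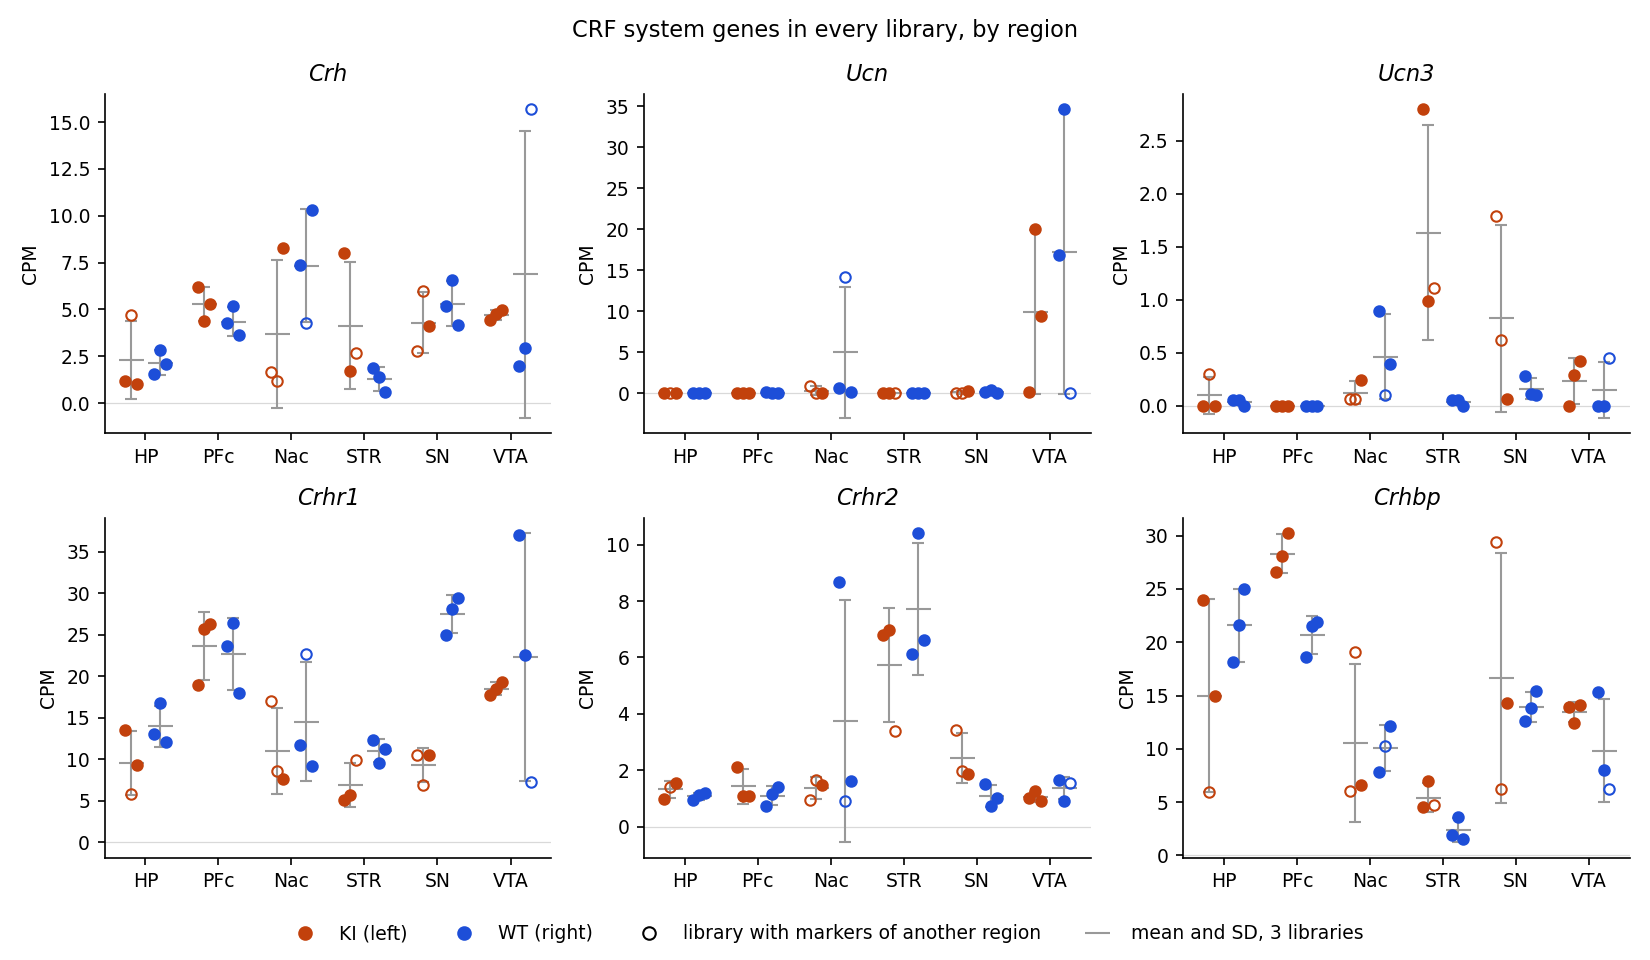
Normalised level (CPM, y axis) of each of the 6 genes in each of the 36 libraries, by labelled region (x axis), with KI left of WT, grey bars for the group mean and SD, and open symbols for the 8 libraries low in markers of their own region. Ucn stood at 9.39 CPM or more in 5 libraries and at 0.929 CPM or less in the other 31, and Crhr1 in SN was at 6.88 to 10.5 CPM in KI and at 25 to 29.4 CPM in WT.

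Region was tested within each genotype with edgeR's quasi-likelihood F test, with Benjamini-Hochberg adjustment over all genes tested at a threshold of 0.05. In KI libraries 4 of the 6 members tested differed between regions (Ucn, Ucn3, Crhr1 and Crhr2), where 12.6% of all genes did. In WT libraries 4 of the 5 tested did (Crh, Ucn, Crhr2 and Crhbp), where 48.0% of all genes did. Ucn in both genotypes and Ucn3 in KI passed the filter on low counts through the libraries in which they were high. Their region calls therefore support nothing. All 4 KI calls were lost when the libraries numbered 2 or 3 were left out (adjusted p 0.0902 to 0.329, edgeR), and that of Ucn3 also without those numbered 1 (0.159). The WT call of Crh was lost without number 1 or 2 (adjusted p = 0.129 and 0.0882, edgeR) and that of Ucn without number 1 (0.107), whereas the WT calls of Crhr2 and Crhbp held without any number. The difference between KI and WT was then tested region by region, in 27 tests over the members that passed the filter on low counts. No member passed in any region with edgeR's quasi-likelihood test at adjusted p 0.05, and neither did any other gene, the background being 0% in each region. At an unadjusted p of 0.05 there were 7 of the 27, namely 1 of 4 in PFc, where 18.1% of all genes were under it, 4 of 5 in STR, where 10.8% were, and 2 of 4 in SN, where 17.6% were. Ucn3 is among the STR members only because its KI libraries passed the filter on low counts, so it had to differ there and its count supports nothing. DESeq2 called Crhr1 in SN, where it called 6.26% of all genes, and Ucn3 in STR, where it called 1.38%. It called no member in HP, PFc, VTA or Nac, with 2.20%, 2.74%, 1.25% and 0.0112% of all genes called there.

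Crh (gene 12918, chromosome 3, 19693401 to 19695396 in GRCm38.p6, the RefSeq annotation used for all positions) had between 0.578 and 15.7 CPM, with a median of 4.22. In WT it was lowest in STR, with 1.86, 1.4 and 0.578 CPM, and in HP, with 1.54, 2.86 and 2.09 CPM. The WT Nac libraries had 7.39, 4.28 and 10.3 CPM, the WT PFc libraries 4.26, 5.16 and 3.62 CPM, and the WT SN libraries 5.17, 6.57 and 4.19 CPM. In the order of WT means, Nac, VTA, SN and PFc each overlapped with the next, PFc lay apart from HP, and HP overlapped with STR. WT STR was lower than the mean of the other WT regions by edgeR's quasi-likelihood test (log2 fold change -1.90, SE 0.556, adjusted p = 0.0244), a contrast in which 20.7% of genes were called; without libraries numbered 1 or 2 the adjusted p was 0.0767 and 0.119. The highest Crh value in the series, 15.7 CPM, was in WT VTA 3, a library low in dopamine neuron markers.

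KI and WT values of Crh overlapped in all 6 regions. PFc had 6.21, 4.4 and 5.29 CPM in KI, against 4.26, 5.16 and 3.62 CPM in WT, and SN had 2.78, 6.01 and 4.11 CPM in KI, against 5.17, 6.57 and 4.19 CPM in WT. Nac had 1.67, 1.18 and 8.26 CPM in KI, against 7.39, 4.28 and 10.3 CPM in WT, where the 2 low KI values came from KI Nac 1 and KI Nac 2. The log2 fold change was -1.01 (SE 0.767) with all Nac libraries. Without the 8, which leaves 1 KI and 2 WT libraries in Nac, it was -0.13. In STR the KI libraries had 8.02, 1.7 and 2.7 CPM, against 1.86, 1.4 and 0.578 CPM in WT, so that 1 KI library carried most of the difference (log2 fold change 1.71, SE 0.633, unadjusted p = 0.0272, adjusted p = 0.413 with edgeR's quasi-likelihood test). In VTA the KI libraries were close together at 4.44, 4.77 and 4.97 CPM, against 1.98, 2.95 and 15.7 CPM in WT. Without WT VTA 3 the VTA value changed sign, to a log2 fold change of 0.94 with an adjusted p of 0.0509 by the same test. In HP, Crh had 1.17, 4.69 and 1.01 CPM in KI and 1.54, 2.86 and 2.09 CPM in WT, and the log2 fold change of 0.10 became -0.97 (adjusted p = 0.177) without KI HP 2. Summed over regions, Crh had a log2 fold change of -0.15 with an SE of 0.198.

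Ucn (gene 22226, chromosome 5, 31137989 to 31138895) had nearly all of its counts in 5 libraries. RefSeq's window around its start site (GRCm38.p6, chr5:31138846-31139145, minus strand, 250 bases before to 50 after the start) is shown because it holds a full cyclic AMP response element, the letters TGACGTCA, which are the same on both strands. The element, in capitals, spans 44 to 37 bases before the start.
Ucn: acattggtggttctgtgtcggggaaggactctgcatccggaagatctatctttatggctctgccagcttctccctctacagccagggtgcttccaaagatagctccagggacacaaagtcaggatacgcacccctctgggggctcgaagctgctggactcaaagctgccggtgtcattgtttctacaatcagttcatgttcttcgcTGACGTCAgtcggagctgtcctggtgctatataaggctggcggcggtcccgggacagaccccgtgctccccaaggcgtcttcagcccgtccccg
These 8 letters occur in 588 of the 32851 RefSeq promoter windows of this length, or 1.79%, and in none of the windows of Ucn3, Crhr1, Crhr2 and Crhbp; no window for Crh was used here. A match is a description of the sequence, and no binding was measured here.

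In VTA, Ucn had 0.127, 20.1 and 9.39 CPM in KI, against 16.9, 34.7 and 0.057 CPM in WT. Each genotype therefore had 2 libraries with a clear signal and 1 near 0: the low WT library, WT VTA 3, was low in dopamine neuron markers, whereas the low KI library, KI VTA 1, was not, with 368 CPM of Slc6a3, the dopamine transporter gene. The remaining high value, 14.2 CPM, came from WT Nac 2, a library labelled Nac with 182 CPM of Slc6a3. All other libraries had 0.929 CPM or less, and 14 of 36 had no count. In KI HP and KI STR the 3 libraries together had no count, which allows a level of up to 0.0633 CPM in KI HP and 0.0561 CPM in KI STR (3 counts over the group, counting error only).

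The same 5 libraries were the ones high in Cartpt, the gene of the CART peptide, which Edinger-Westphal neurons make together with urocortin. Cartpt was at 146 CPM or more in the 5 libraries with Ucn above 5 CPM and at 81.6 CPM or less in the other 31. KI VTA 1, with dopamine neuron markers but little Ucn, had 5.39 CPM of Cartpt, and KI VTA 2 and 3 had 302 and 146 CPM. Over 36 libraries the correlation of log2 levels was 0.76 between Ucn and Cartpt, 0.69 between Ucn and Slc6a3 and -0.14 between Ucn and Nucb2, another gene known from Edinger-Westphal neurons. Over the 28 libraries left without the 8 they were 0.89, 0.69 and -0.05 for Cartpt, Slc6a3 and Nucb2 in turn. For Tph2, a marker of serotonin neurons, the value was 0.75 over 36 libraries and 0.71 over 28. For Cck it was -0.33 and -0.38. Libraries share region and dissection, so these values are descriptions. In these bulk samples, fewer cells of a type and less RNA per cell cannot be told apart.

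**Figure D2:**
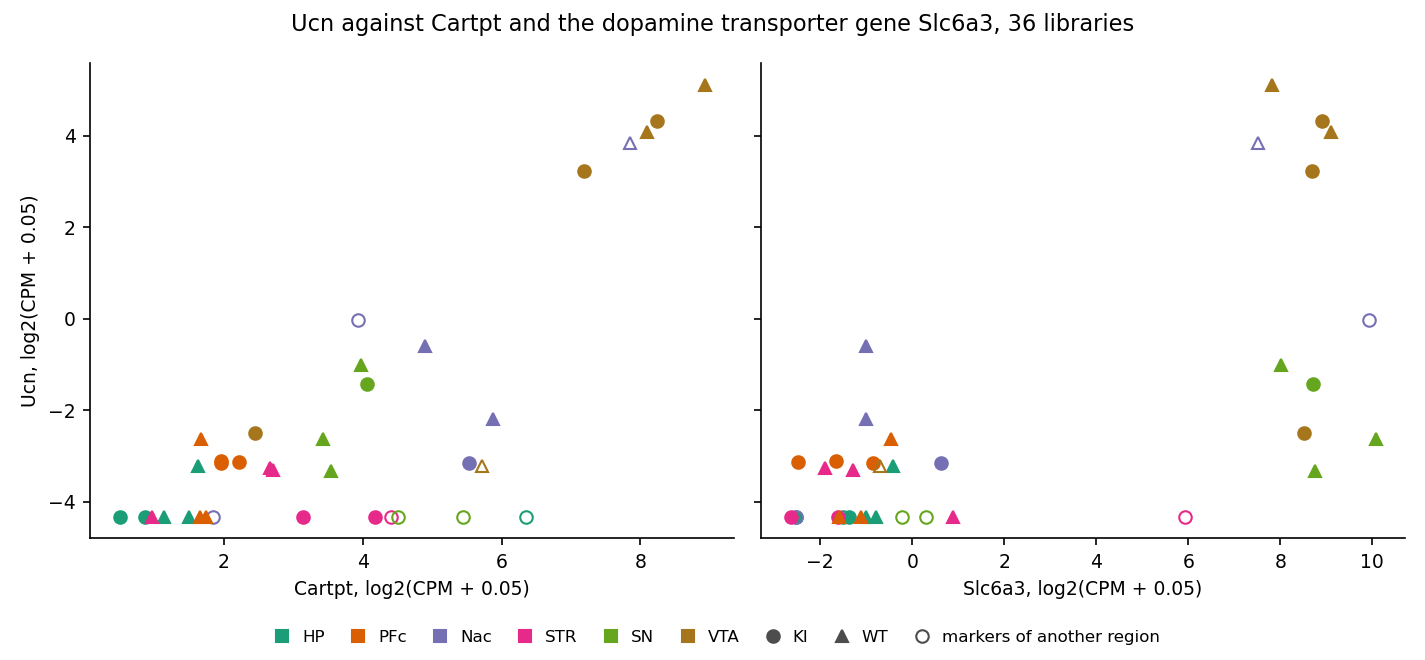
Ucn (y axis, log2(CPM + 0.05)) against Cartpt (left) and Slc6a3 (right), both log2(CPM + 0.05), with 1 point per library (n = 36), coloured by labelled region. The 5 libraries with Ucn at 9.39 CPM or more had Cartpt at 146 CPM or more, while several libraries high in Slc6a3 had almost no Ucn.

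Against the other regions, Ucn was higher in VTA in KI (log2 fold change 7.79, SE 1.03, adjusted p = 0.00414, in a contrast that called 19.2% of genes) and in WT (6.96, SE 1.01, adjusted p = 0.00256, in a contrast that called 7.61%), both by edgeR's quasi-likelihood test. Ucn passed the filter on low counts through the libraries in which it was high, so its region contrasts are descriptions. Without the libraries numbered 2 or 3 the KI contrast had an adjusted p of 0.0888 and 0.166, and without those numbered 1 the WT contrast had 0.107. The WT Nac contrast also passed (4.84, SE 1.12, adjusted p = 0.0487, where 1.20% of genes were called), and rested on WT Nac 2: without the 8 libraries it was 1.06 with an adjusted p of 0.331. Between genotypes, VTA had 506 counts in KI and 965 in WT, with a log2 fold change of -0.80 that was smaller than its SE of 1.55 (adjusted p = 0.858, edgeR). In Nac the value was -3.92 (SE 1.9, adjusted p = 1, edgeR). Without the 8 libraries, which leaves 1 KI and 2 WT libraries in Nac, it was -2.56.

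Ucn3 (gene 83428, chromosome 13, 3940688 to 3945349) was the least abundant member, with 195 counts over 36 libraries, 13 of them at 0 and only 6 at 10 counts or more. It had its highest values in KI STR, at 2.8, 0.989 and 1.11 CPM, against 0.0548, 0.0517 and 0 CPM in WT STR. All 3 KI libraries lay above all 3 WT libraries. In counts this was 51, 18 and 19 in KI and 1, 1 and 0 in WT, or 88 against 2, a ratio per effective library size of 46.6 with an exact 95% interval of 12.5 to 391 that covers counting error only. Ucn3 passed the filter in STR through the KI libraries, so the tests that follow are of a gene that entered by its difference. edgeR's quasi-likelihood test gave a log2 fold change of 5.30 (SE 0.793, unadjusted p = 1.57e-04), and the adjusted p was 0.251, with no gene below it in that comparison. DESeq2 gave 5.54 with an adjusted p of 0.00142, and the authors' deposited table lists 5.54 with a q-value of 0.00169.

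Hypothalamic genes are given beside it. Oxt, the hypothalamic peptide gene for oxytocin, had 34.8, 1.87 and 12.3 CPM in KI STR, against 2.03, 1.76 and 0.158 CPM in WT STR, with overlapping groups (adjusted p = 0.339, edgeR). The marker Irs4 had 31.3, 8.3 and 13.2 CPM in KI STR, against 2.14, 4.44 and 1.21 CPM in WT STR. Calcr, another marker, had 8.51, 3.13 and 3.52 CPM in KI STR, against 1.15, 1.65 and 0.368 CPM in WT STR. Every KI value of Irs4 and Calcr was thus above every WT value, whereas Avp, Hcrt and Agrp overlapped. All 8 hypothalamic markers had counts in both groups, and their summed level ran from 23.4 to 294 CPM in KI STR and from 26.5 to 34.4 CPM in WT STR. KI STR 2 had 18 Ucn3 counts, with Oxt within the WT range and a hypothalamic sum of 23.4 CPM, below all WT STR libraries. The mean log2(CPM + 1) of the hypothalamic markers was 1.48 in KI STR 2, within the 1.19 to 1.64 of WT STR. Irs4 and Calcr in KI STR 2 were above all WT STR libraries. KI STR 3 is among the 8 libraries low in their own markers, and without it the log2 fold change was 5.51 (adjusted p = 0.275, edgeR). The part of neighbouring tissue in this difference was not tested.

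Outside STR, Ucn3 did not reach the filter on counts in any region and was not tested there in the main comparison; with no filter, edgeR's quasi-likelihood test gave a log2 fold change of 2.29 in SN (adjusted p = 0.312) and -1.86 in Nac (adjusted p = 1). SN had 1.79, 0.62 and 0.0643 CPM in KI and 0.278, 0.111 and 0.101 CPM in WT, and the higher 2 KI values came from KI SN 1 and KI SN 2, both low in dopamine neuron markers. Nac had 0.0619, 0.0618 and 0.249 CPM in KI, against 0.896, 0.107 and 0.394 CPM in WT. PFc had no Ucn3 count in either genotype, which allows up to 0.0648 CPM in KI and 0.0571 CPM in WT. Among KI libraries STR was above the other regions (log2 fold change 3.81, SE 0.792, adjusted p = 0.0114, edgeR, in a contrast that called 5.14% of genes), although leaving out any library number raised the adjusted p to between 0.0766 and 0.0929. Ucn3 entered that contrast mainly through the KI STR libraries themselves, so its call there supports nothing. HP and VTA had at most 0.304 and 0.424 CPM in KI and at most 0.0592 and 0.456 CPM in WT. Summed over regions by library number, Ucn3 had a KI over WT log2 fold change of 1.83 (SE 0.518, adjusted p = 0.122 with edgeR's quasi-likelihood test and 0.0248 with DESeq2). DESeq2 called 8.88% of all genes in this comparison, and edgeR 0%. The 88 KI STR counts and those of KI SN 1 and KI SN 2 enter these sums, so this DESeq2 call supports nothing further.

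Crhr1 (gene 12921, chromosome 11, 104130463 to 104175523) encodes the receptor for CRF and urocortin and had the most counts of the 6 genes. It overlaps the predicted gene Gm35469 in the annotation, and whether the counting used strand is not given in the sources used here. It had 10.5, 6.88 and 10.5 CPM in KI SN, against 25, 28.1 and 29.4 CPM in WT SN. The groups did not overlap, and the highest KI value was well below the lowest WT value. The means were 9.29 ± 2.09 CPM in KI and 27.5 ± 2.22 CPM in WT (SD, n = 3 each), a log2 fold change of -1.57 (SE 0.213, unadjusted p = 1.09e-04). The adjusted p was 0.122 with edgeR's quasi-likelihood test, with no gene in SN below it, and 8.37e-07 with DESeq2, and the authors' deposited table lists -1.57 with a q-value of 1.01e-06.

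The dopamine neuron markers differed between the same SN libraries. Their mean log2(CPM + 1) was 2.05 to 2.52 in KI SN 1 and KI SN 2 and 6.07 to 7.72 in the other 4. The KI library that kept these markers, KI SN 3, had 422 CPM of Slc6a3 and 10.5 CPM of Crhr1, against 1076, 258 and 435 CPM of Slc6a3 in WT SN. With KI SN 1 and KI SN 2 left out, the log2 fold change was -1.38 (SE 0.226, adjusted p = 0.293, edgeR), with a single KI library that is assumed to vary like the WT libraries. Leaving out KI SN 3 instead, which keeps only KI libraries low in these markers, gave an adjusted p of 0.0348 by the same test. Leaving out 1 SN library at a time gave 0 to 383 of all genes called.

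**Figure D3:**
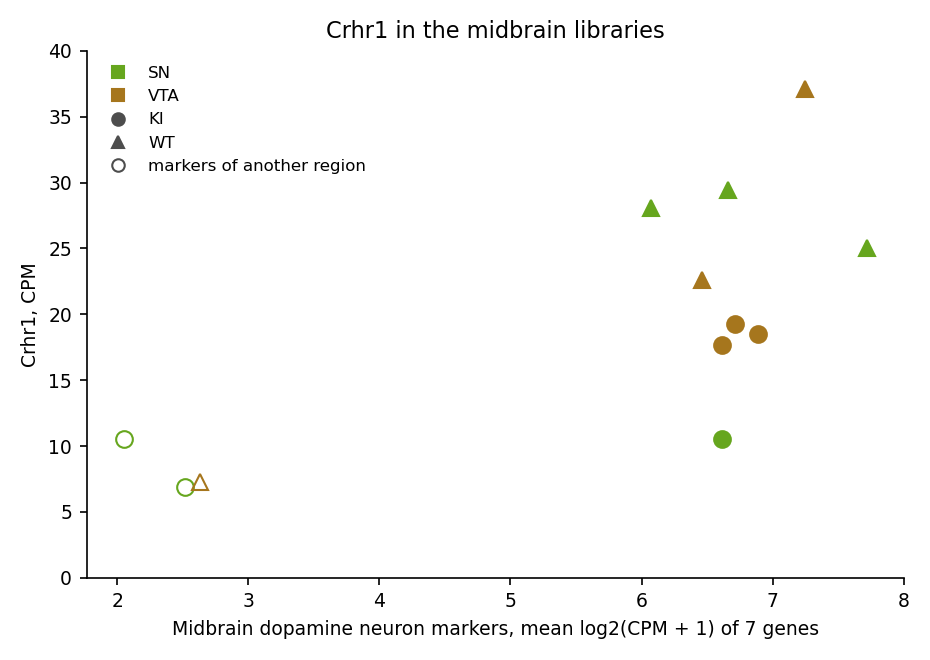
Crhr1 (y axis, CPM) against the mean log2(CPM + 1) of 7 midbrain dopamine neuron markers (x axis) in the SN and VTA libraries, with 1 point per library coloured by region, with circles for KI, triangles for WT and open symbols for the 3 libraries low in these markers. KI SN 3, at 10.5 CPM, lay with the marker-positive libraries on the x axis and below all WT SN libraries, which had 25 to 29.4 CPM.

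In VTA, Crhr1 had 17.7, 18.5 and 19.3 CPM in KI, against 37.1, 22.6 and 7.29 CPM in WT, where the low value came from WT VTA 3. The log2 fold change was -0.27 (SE 0.503, adjusted p = 0.848, edgeR), and without WT VTA 3 it was -0.69 (SE 0.19, adjusted p = 0.0633). In STR the values were 5.05, 5.66 and 9.91 CPM in KI and 12.3, 9.56 and 11.3 CPM in WT, which overlapped through KI STR 3 (log2 fold change -0.67, SE 0.276, adjusted p = 0.445, edgeR). Without that library the KI values lay below the WT values, with a log2 fold change of -1.03 (SE 0.195, adjusted p = 0.296, edgeR). HP had 13.5, 5.78 and 9.27 CPM in KI, against 13, 16.8 and 12.1 CPM in WT, with the lowest value in KI HP 2; the log2 fold change was -0.56 (SE 0.308) with it and -0.28 (SE 0.202) without it. PFc had 18.9, 25.7 and 26.3 CPM in KI and 23.7, 26.4 and 18 CPM in WT, a log2 fold change of 0.08 with an SE of 0.196. Nac had 17, 8.53 and 7.58 CPM in KI and 11.7, 22.7 and 9.18 CPM in WT, and the highest value of each genotype was in a library with dopamine neuron markers, KI Nac 1 and WT Nac 2.

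Summed over the 6 regions by library number, Crhr1 was lower in KI with a log2 fold change of -0.54 (SE 0.14, adjusted p = 0.102, edgeR; adjusted p = 0.00865, DESeq2), where edgeR called 0% of genes and DESeq2 8.88%. A fit over the 36 libraries with region as a term gave -0.57 with an adjusted p of 0.0393, where 9.47% of genes were called, and without the 8 libraries -0.54 with an adjusted p of 0.00639, where 16.7% were called. That fit treats libraries of the same number in different regions as independent, which the labels do not state. A difference of the KI effect between regions was not shown for any member. The adjusted p of the interaction lay between 0.563 and 0.84 with edgeR's quasi-likelihood test. That test called 0 of 6 members, where it called 0% of all genes, and DESeq2 called none of the 6. An unadjusted p under 0.05 by edgeR was found for 2 of 6, Ucn3 and Crhr2, where 8.73% of all genes had one. Ucn3 entered this fit mainly through libraries in which it was high.

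Between regions, the order of Crhr1 in KI means was PFc (23.6 ± 4.13 CPM), VTA (18.5 ± 0.785), Nac (11 ± 5.2), HP (9.51 ± 3.85), SN (9.29 ± 2.09) and STR (6.87 ± 2.65), in which VTA lay apart from Nac and the other neighbours overlapped. PFc was above the other KI regions (log2 fold change 1.19, SE 0.244, adjusted p = 0.00692, edgeR, in a contrast that called 8.89% of genes), with an adjusted p of 0.13 and 0.144 when the libraries numbered 2 or 3 were left out. The order in WT was SN (27.5 ± 2.22 CPM), PFc (22.7 ± 4.3), VTA (22.3 ± 14.9), Nac (14.5 ± 7.17), HP (14 ± 2.53) and STR (11 ± 1.37), each overlapping with the next. The WT test across regions gave an adjusted p of 0.0866 with all libraries and 6.34e-05 without the 8, where 70.0% of genes were called (edgeR). Of the 5 Crhr1 transcripts in the deposited transcript table, NM_007762 took 84.9% of the estimated counts.

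Crhr2 (gene 12922, chromosome 6, 55090048 to 55133016) encodes the receptor for the urocortins. It was highest in STR in both genotypes, at 6.81, 6.98 and 3.4 CPM in KI and 6.13, 10.4 and 6.62 CPM in WT. Outside STR only WT Nac 1, at 8.68 CPM, and KI SN 1, at 3.44 CPM, exceeded 3 CPM. STR was above the other regions in KI (log2 fold change 1.98, SE 0.256, adjusted p = 4.33e-04) and in WT (2.41, SE 0.391, adjusted p = 5.14e-04) by edgeR's quasi-likelihood test.

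The STR libraries also carried markers of the choroid plexus, the ventricular epithelium that makes cerebrospinal fluid. Its 6 markers summed to between 3530 and 10265 CPM in KI STR and between 10656 and 15959 CPM in WT STR, with all 6 detected, and to at most 3015 CPM in any other group of libraries. Ttr, the transthyretin gene and the main choroid plexus transcript, had 9083, 10002 and 3458 CPM in KI STR, against 11245, 15600 and 10372 CPM in WT STR. KI SN 1, the SN library with the most Crhr2, had 2958 CPM of Ttr, whereas WT Nac 1 had 8.68 CPM of Crhr2 with 56.5 CPM of Ttr. The correlation of log2 levels of Crhr2 and Ttr was 0.70 over 36 libraries and 0.74 over 28, as a description. The part of choroid plexus tissue in the STR level was not tested.

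Crhr2 has alternative starts, and the transcript table separates them. In GRCm38.p6 the transcripts NM_009953 and NM_001288618 begin at the upstream end, at 55133014 and 55132960 of chromosome 6, and NM_001288619 and NM_001288620 begin at 55117913, which is 15103 bases downstream of the most upstream start; XM_006505482 could not be placed. In STR the upstream starts took 33.8% of the Crhr2 estimated counts in KI (18.6 to 45.3% per library) and 59.7% in WT (33.2 to 86% per library). In the other 5 regions together they took 8.54% in KI and 6.15% in WT. The downstream start took 45.4% in KI STR and 34.9% in WT STR. Its estimated counts were also highest in STR, at 140.3 in KI and 154 in WT. The next highest were 77.8 in KI SN and 124 in WT Nac. WT Nac 1, with 155 Crhr2 counts, had none from the upstream starts. In KI SN the upstream starts took 21.4%, all from KI SN 1 (24.2 of 52 counts), and in WT SN 20.5%, all from WT SN 3 (12.3 of 20 counts). WT Nac 2 had 10.6 of 17 counts there. Of these, KI SN 1 had 2958 CPM of Ttr, while WT SN 3 and WT Nac 2 had 19 and 13.4 CPM. Outside STR a library holds few Crhr2 counts, so single shares there are coarse, and a transcript's estimated count also depends on how the authors' tool divided shared reads.

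The upstream promoter window from RefSeq (GRCm38.p6, chr6:55132967-55133266, minus strand, 250 bases before to 50 after the start) is shown because the upstream starts took a larger share of Crhr2 counts in STR than in the other regions together. Counts from the downstream start were also highest in STR. The letters TATAAA, in capitals, span 39 to 34 bases before the start, and 13.6% of the promoter windows hold them on either strand.
Crhr2: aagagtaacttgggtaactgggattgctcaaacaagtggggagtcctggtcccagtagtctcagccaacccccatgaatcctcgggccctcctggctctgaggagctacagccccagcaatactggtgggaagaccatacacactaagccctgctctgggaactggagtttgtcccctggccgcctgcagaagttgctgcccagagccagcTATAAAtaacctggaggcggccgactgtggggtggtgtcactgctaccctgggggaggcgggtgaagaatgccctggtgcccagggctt
The Crhbp window holds the same letters only after its start, and those of Ucn, Ucn3 and Crhr1 do not hold them.

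**Figure D4:**
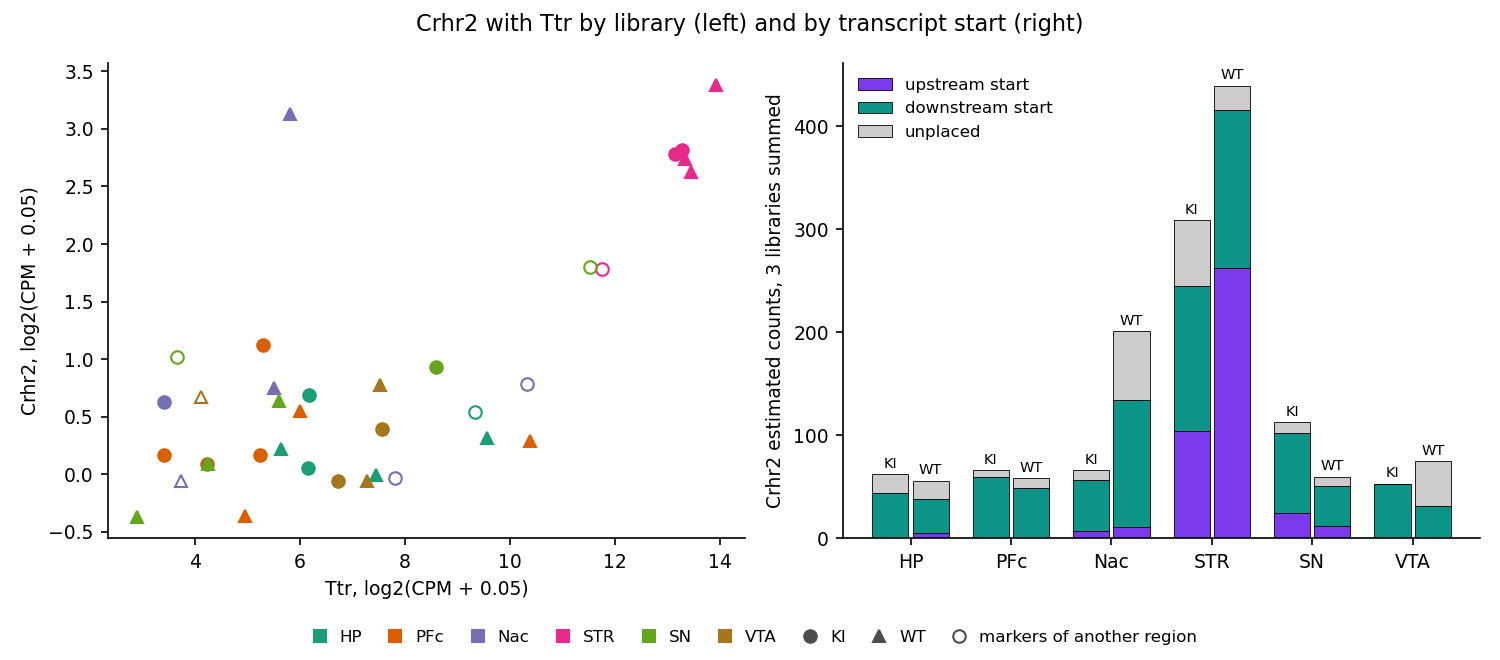
Left, Crhr2 against Ttr, both log2(CPM + 0.05), with 1 point per library (n = 36). Right, Crhr2 estimated counts summed over 3 libraries per region, KI left of WT, split by transcript start. Upstream starts made up 33.8% in KI STR and 59.7% in WT STR, and the downstream start 45.4% and 34.9%.

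Between genotypes, Crhr2 separated the groups only in SN, with 3.44, 1.98 and 1.86 CPM in KI, against 1.5, 0.724 and 1.01 CPM in WT. The log2 fold change was 1.16 (SE 0.417, unadjusted p = 0.0254, adjusted p = 0.218 with edgeR's quasi-likelihood test, 0.174 with DESeq2). Without KI SN 1 and KI SN 2, which leaves 1 KI library, it was 0.79. In STR the KI libraries averaged 5.73 ± 2.02 CPM and the WT libraries 7.73 ± 2.36 CPM (SD, n = 3 each), within the spread (log2 fold change -0.42). Summed over regions it was -0.27 with an SE of 0.202. HP, PFc and VTA had 0.909 to 2.13 CPM in KI and 0.729 to 1.66 CPM in WT, with overlapping groups. In Nac the log2 fold change of -1.47 (SE 0.859, edgeR) rested on WT Nac 1, since the other 5 Nac libraries had 0.908 to 1.67 CPM.

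Crhbp (gene 12919, chromosome 13, 95431376 to 95444831), the gene of the secreted binding protein, was high in HP and PFc and low in STR. WT HP had 18.1, 21.6 and 25 CPM, WT PFc 18.6, 21.5 and 21.9 CPM, WT SN 12.6, 13.8 and 15.4 CPM, and WT STR 1.92, 3.62 and 1.52 CPM. In the order of WT means HP and PFc overlapped, SN lay below both, Nac and VTA came next and overlapped each other, and STR lay below all. In KI, PFc was above the other regions (log2 fold change 1.32, SE 0.381, adjusted p = 0.0435, edgeR's quasi-likelihood test), a call that was lost without the libraries numbered 3 (adjusted p = 0.397). In WT, by the same test, HP was above the other regions (1.22, SE 0.217, adjusted p = 6.29e-04, where 34.4% of genes were called), as was PFc (1.16, SE 0.217, adjusted p = 0.00142, where 28.5% were called), and STR was below them (-2.60, SE 0.297, adjusted p = 2.33e-05).

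In PFc the KI libraries had 26.6, 28.1 and 30.2 CPM of Crhbp, against 18.6, 21.5 and 21.9 CPM in WT, with every KI value above every WT value. The log2 fold change was 0.47 (SE 0.124, unadjusted p = 0.00588, adjusted p = 0.208 with edgeR's quasi-likelihood test, 0.0826 with DESeq2). KI PFc 1 also had striatal projection neuron markers at a mean log2(CPM + 1) of 6.81, whereas those of the remaining PFc libraries were at 3.35 to 4.49. Without that library the value was 0.51 and the adjusted p 0.049 (edgeR). Of 10 other settings with edgeR or DESeq2 this was the only 1 that passed, with adjusted p from 0.049 to 0.573. Leaving out 1 PFc library at a time gave 0 to 550 of all genes called. STR was the other region in which all KI values were above all WT values, at 4.56, 6.98 and 4.75 CPM in KI and 1.92, 3.62 and 1.52 CPM in WT (log2 fold change 1.22, SE 0.355, adjusted p = 0.343, edgeR). The authors' deposited table lists q-values of 0.107 for PFc and 0.0926 for STR.

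In the other regions Crhbp overlapped. HP had 24, 5.97 and 15 CPM in KI, against 18.1, 21.6 and 25 CPM in WT, and SN had 29.4, 6.26 and 14.3 CPM in KI, against 12.6, 13.8 and 15.4 CPM in WT. The extreme KI values in both regions came from KI HP 2, KI SN 1 and KI SN 2. Without them the log2 fold change was -0.13 (SE 0.202) in HP. In SN, where 1 KI library was left, it was 0.03. VTA had 13.9, 12.4 and 14.1 CPM in KI and 15.3, 7.99 and 6.21 CPM in WT. Nac had 6, 19.1 and 6.59 CPM in KI and 7.78, 10.3 and 12.1 CPM in WT, with the highest value in KI Nac 2. Summed over regions, Crhbp differed by 0.16 on the log2 scale with an SE of 0.109.

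Counted over members, the KI and WT libraries did not overlap in 5 of the 27 tests. PFc had 1 of 4 members apart (Crhbp), where 28.5% of all genes were apart. STR had 2 of 5 (Ucn3 and Crhbp, both higher in KI), where 17.7% were; Ucn3 entered through its KI counts, and without it the count is 1 of 4. SN had 2 of 4 (Crhr1 lower and Crhr2 higher in KI), where 23.9% were. HP had 0 of 4, Nac 0 of 5 and VTA 0 of 5, where 23.9%, 4.19% and 23.4% of genes were apart. With so few members these shares are read as counts only.

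**Figure D5:**
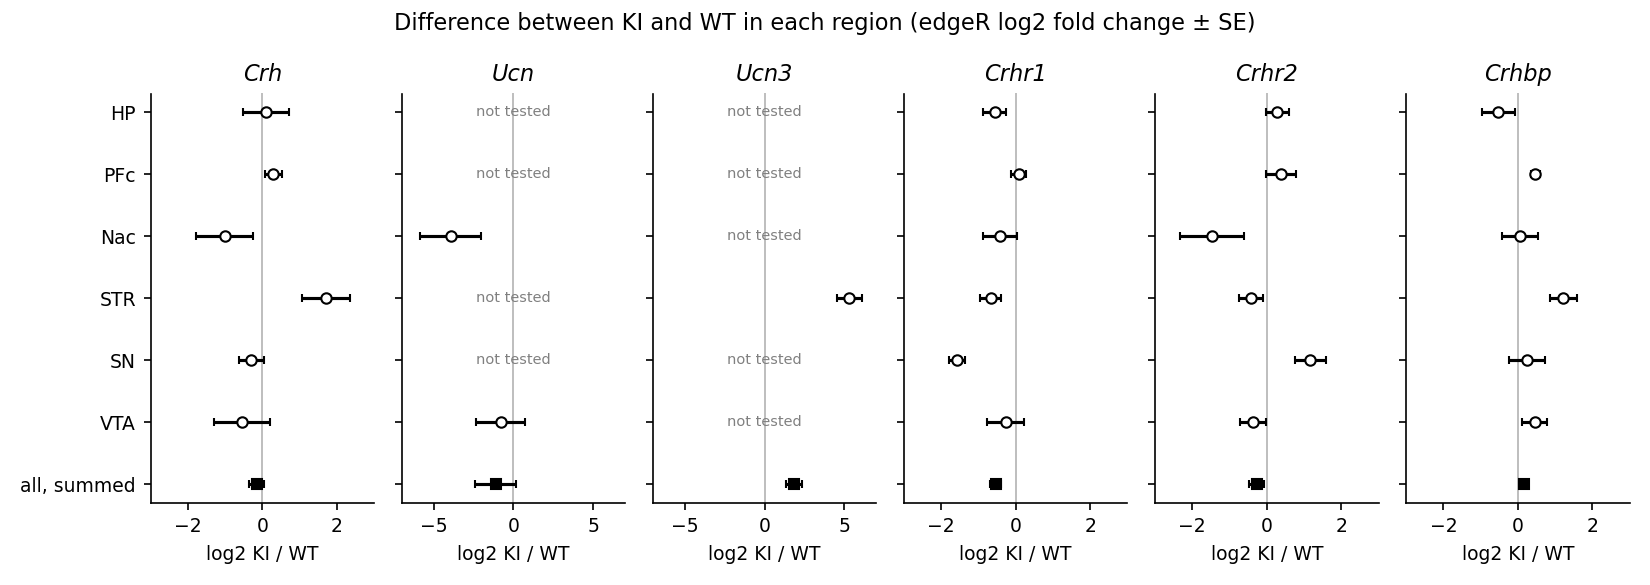
Log2 fold change of KI over WT (x axis) with its SE from edgeR for each member, by region and for the sums over regions (y axis); members that did not pass the filter on low counts in a region are marked as not tested. Ucn3 in STR, at 5.30, and Crhr1 in SN, at -1.57, lay farthest from 0 relative to their SE.

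For each member the 5 genes with the most similar pattern over 36 libraries were taken by Pearson correlation of log2 CPM. Crhbp was most like Ccn3 (0.91), Ptpru (0.88), Glrx2, Basp1 and Slc30a3, and Crhr1 most like Bean1 (0.88), Camk2g (0.87), Aldh3a1, Fam57b and Slc20a1. Crhr2 was most like Rab20 (0.87), Ubxn11 (0.87), Iqub, Kif9 and Ccpg1os. Ucn was most like Skor2 (0.82), Nova1, Slc6a4 (0.80), the serotonin transporter gene, C1ql1 and Pax3. Crh reached 0.78 with Cdh22, followed by Cdh4, Gng4, Sgsm1 and Insyn2a, and the genes given for Ucn3 are Esyt3 (0.77), Megf6, Brs3 and Dnah1. Among the members themselves, Crhr2 ran opposite to Crhbp (-0.62) and Crhr1 (-0.56), and Crhr1 and Crhbp were at 0.47; over the 28 libraries these were -0.76, -0.63 and 0.51. Libraries of a region share their tissue, so none of these values carries a p.

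Crhbp and Crh are known from cortical interneurons, and likeness to interneuron genes ranged widely. Over 36 libraries Crhbp had a correlation of 0.60 with Nos1, 0.20 with Sst and 0.09 with Npy. Crh had 0.14 with Vip, 0.13 with Calb2 and -0.32 with Cck.

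The wider pathway was followed in a list of 42 genes for peptide processing, receptor coupling and signal, receptor desensitisation and the stress axis. None passed between KI and WT in any region with edgeR's quasi-likelihood test. At an unadjusted p of 0.05 there were 10 of 37 tested in SN, where 17.6% of all genes were under it, 10 of 36 in PFc (18.1% of all genes), 7 of 39 in STR (10.8%), 6 of 36 in HP (14.2%), 6 of 38 in VTA (13%) and 0 of 38 in Nac (1.02%). DESeq2 called 6 of them in SN, where it called 6.26% of all genes, 2 each in PFc (2.74%) and VTA (1.25%), 1 in STR (1.38%) and 0 in HP (2.20%) and Nac (0.0112%). The list's median log2 fold change was highest in SN, at 0.24, and lowest in VTA, at -0.23, with -0.12 in both HP and PFc, 0.10 in STR and 0.03 in Nac, where the median of all genes lay between -0.01 and 0.03. Striatal projection neuron markers had scores of 8.38 in KI SN 2 and 7.72 in WT VTA 3, and striatal genes of the list were high there: Adcy5, an adenylyl cyclase gene, had 187, 1309 and 342 CPM in KI SN, against 154, 129 and 142 CPM in WT SN, and 130.4, 136 and 134 CPM in KI VTA, against 141, 117 and 893 CPM in WT VTA. The part of these libraries in the list's medians was not tested.

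Single pathway genes are given with edgeR's log2 fold change of KI over WT. Rapgef4, a cyclic AMP-activated exchange factor, was 1.07 in PFc (adjusted p = 0.208, edgeR; 1.40e-10, DESeq2). Pcsk1, a protease that cuts peptide precursors, was -1.08 in PFc (DESeq2 adjusted p = 0.00181) and 0.95 in STR (DESeq2 adjusted p = 6.33e-04). In SN, Crtc1, a coactivator of cyclic AMP response element-binding protein, was 1.35 and Cpe, carboxypeptidase E, was 0.78, both past DESeq2's threshold and neither past edgeR's.

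Between regions of KI, 9 of the 39 pathway genes tested differed by edgeR's quasi-likelihood test, where 12.6% of all genes did, and between regions of WT 26 of 39 did, where 48.0% of all genes did. WT PFc was above the other WT regions for 15 of the 39 and below for none, where 28.5% of all genes were called; examples are the adenylyl cyclase genes Adcy1 (log2 fold change 2.14) and Adcy2 (1.09) and the receptor kinase gene Grk3 (1.23). WT HP was above for 10, among them the mineralocorticoid receptor gene Nr3c2 (2.40) and the glucocorticoid-induced cochaperone gene Fkbp5 (1.27), and below for 5, where 34.4% of all genes were called. WT STR was below for 9, among them Pam, the peptide-amidating enzyme (-0.80), and Grk3 (-0.84), and above for 2, where 20.7% of all genes were called. WT SN was below for 4, where 7.91% of all genes were called, and WT VTA was below for 5 and above for 1, where 7.61% were, with the prohormone convertase gene Pcsk2 in both (-0.60 in SN and -0.65 in VTA).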

How the data were processed

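The authors deposited gene and transcript tables with estimated counts, TPM and their own comparisons; the estimated counts and TPM are used per the file headers, and the log2 fold changes and q-values of the authors' deposited table are printed only where it is named. The build is GRCm38.p6 per the submitters' processing notes; the aligner, the counting tool and the strand setting were not given in the sources used here. Estimated counts (9.88% of gene values were not whole) were rounded. Genes were filtered with filterByExpr, scaled by TMM and tested with edgeR 4.0.16 in R 4.3.3 by the quasi-likelihood test, with Benjamini-Hochberg adjustment over all genes tested at 0.05; DESeq2 1.42.0 was an alternative. CPM values are counts per 1000000 of the TMM-scaled library size over 36 libraries, and SE is the size of the log2 fold change divided by the root of F. Fits took the 6 libraries of a region, sums per genotype and library number, all 36 libraries for the interaction, or 18 libraries of a genotype for regions. The steps were tested on simulated data. No per-sample column beyond those of the 36 libraries was analysed; 144 columns were left unused. No libraries were duplicates. Library numbers were not taken to pair the samples. The text names the 6 members, the 5 genes most like each, and at most 5 genes per list and comparison in order of p. Some genes that this rule names are not reported here. The members and lists were chosen with earlier results of these data known.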

Additional observations from a re-analysis of the deposited data

How the results depend on the processing

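Over the KI and WT differences of the members, 335 values under other settings kept direction and side of the threshold, 8 passed it in addition and 22 changed sign; the cause was not tested. The count of all genes called between KI and WT, 0 in each main comparison, was with DESeq2 990 in SN, 362 in PFc, 259 in HP, 210 in STR, 185 in VTA, 2 in Nac, 1356 over all regions and 33 for the interaction, and 4273 between KI regions. Without the 8 libraries it was 60 in HP, 838 in VTA, 8 for the interaction and 7791 between KI regions. With region as a term it was 1455, and 2619 without the 8 libraries; with no filter on low counts the sums gave 5. Leaving out 1 replicate at a time (between regions and for the sums, all libraries of a number) gave 0 to 60 in HP, 0 to 550 in PFc, 0 to 2 in STR, 0 to 383 in SN, 0 to 838 in VTA, 0 to 10 over all regions, 2156 to 5897 between WT regions and 8 to 1977 between KI regions. Signs of log2 fold changes turned, under these omissions, for Crh in HP (-0.97 to 0.45), VTA (-0.99 to 0.94) and the sums (-0.28 to 0.11), Ucn in VTA (-1.84 to 0.20) and the sums (-2.03 to 0.19), Crhr1 in PFc (-0.08 to 0.21), Nac (-0.88 to 0.06) and VTA (-0.69 to 0.31), Crhr2 in PFc (-0.03 to 0.59) and Nac (-1.93 to 0.08), and Crhbp in Nac (-0.70 to 0.34) and SN (-0.44 to 0.64). Without the 8 libraries they turned for Crh in HP (-0.97), VTA (0.94) and over all regions with region as a term (0.42), and for Crhbp in Nac (-0.62). The library numbers were not taken to pair the samples: 2 of 18 pairs of the same number in KI and WT correlated above 0.1 (-0.47 to 0.46). Of the pairs of the same number in 2 regions of a genotype, 21 of 90 did (-0.52 to 0.60). The 8 libraries low in their own markers enter these values, so they cannot show whether such libraries shared an animal. A replicate block gave 13 genes in SN and turned Crh in HP (-0.19) and VTA (0.04) and Crhbp in Nac (-0.14). Between KI regions, the block also ended the calls of Ucn3 and Ucn (adjusted p = 0.0906 and 0.054, edgeR) and of Crhbp in PFc (0.0578), and between WT regions that of Crh (0.0524). Depth limits Ucn and Ucn3, which had 10 counts or more in 7 and 6 libraries.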
